A study of Mus musculus with 8 samples.

Results

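This account covers 8 genes of meiotic crossover formation and DNA mismatch repair, taken by symbol with no threshold on their values, though with earlier results of these data known: Msh4, Msh5, Hfm1, Tex11, Ccnb1ip1, Mlh3, Msh6 and Pms2. All 8 were listed in every library, among 17709 genes listed at 16.5 days post coitum (dpc), 17376 at 10 days post partum (dpp) and 17194 at 20 dpp. Msh4, Msh5, Hfm1, Tex11 and Ccnb1ip1 were treated as the 5 meiosis-specific members, Msh6 and Pms2 as the 2 members used in all dividing cells, and Mlh3 as the 1 member with both roles. RNA came from whole testes of male mice on a hybrid of the C3H/HeJ and C57BL/6J strains. The mutants carried an IAP element, an endogenous retrovirus copy, on both alleles of Dnmt3C (IAP/IAP). The controls were heterozygous (IAP/WT), so they carried the insertion on 1 allele, and no wild-type group was analysed here. Of the 8 libraries, 4 were from 20 dpp (2 mutant and 2 control), and each younger age had a single mutant and a single control library. Gene reads per library ranged from 57166311 to 155742823. Nothing in the labels ties the 20 dpp libraries to separate animals, and the p-values therefore cover the spread among libraries, which may be technical. The targeted gene, Dnmt3C, was not analysed here and gives no check of the labels.

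Crossovers join homologous chromosomes during the first meiotic prophase, and in the mouse most of them are made by a pathway that begins with the MutS homologues MSH4 and MSH5. These proteins form a clamp on recombination intermediates. HFM1 is a DNA helicase that extends those intermediates, TEX11 is an X-linked scaffold of the same pathway, and CCNB1IP1 (also called HEI10) is a ubiquitin or SUMO ligase that thins early recombination sites to the final crossover sites. MLH3 belongs to the MutL endonuclease that resolves crossovers in pachytene and also takes part in mismatch repair. MSH6 recognises mismatches as part of MutSα, and PMS2 is the nuclease subunit of MutLα, and both repair replication errors in dividing cells of all tissues. Male germ cells are arrested at 16.5 dpc, enter meiosis in the first wave at about the age of the 10 dpp samples, and include pachytene spermatocytes in normal testes at 20 dpp.

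The genes lie on several chromosomes in mm10 (GENCODE M21): Msh4 on chromosome 3 (153857149 to 153906138), Msh5 (35028605 to 35046745) and Msh6 (87975062 to 87990892) on chromosome 17, Hfm1 (106840192 to 106926321) and Pms2 (143909964 to 143933968) on chromosome 5, Tex11 on chromosome X (100838648 to 101059667), Ccnb1ip1 on chromosome 14 (50789248 to 50807732) and Mlh3 on chromosome 12 (85234520 to 85270599). All are protein-coding. Ccnb1ip1 shares 233 of its 1883 exonic bases (12.4%) with Rpph1, the RNA of ribonuclease P, on the same strand. Of the other members, Msh4, Msh6 and Pms2 share between 0.782% and 4.85% of their exonic bases with any 1 other gene. The handling of reads in shared bases is not stated by the labels.

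The RefSeq table of start regions (250 bases before to 50 bases after the start, build GRCm38.p6) held entries for 7 of the 8 members, all but Tex11. The regions of Msh4, Msh5 and Hfm1 are shown because these 3 genes act at neighbouring steps of crossover formation but their transcripts differed in direction or size between genotypes at 20 dpp. Each is written 5′ to 3′ on the strand of the gene, with motif matches in capitals:
Msh4 (chr3:153904842-153905141, minus strand): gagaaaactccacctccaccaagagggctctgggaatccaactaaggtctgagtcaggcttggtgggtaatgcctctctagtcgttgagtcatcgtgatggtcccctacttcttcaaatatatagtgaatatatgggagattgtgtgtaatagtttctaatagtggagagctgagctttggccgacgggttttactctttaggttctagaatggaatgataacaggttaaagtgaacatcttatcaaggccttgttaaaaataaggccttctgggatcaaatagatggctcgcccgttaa
Msh5 (chr17:35046573-35046872, minus strand): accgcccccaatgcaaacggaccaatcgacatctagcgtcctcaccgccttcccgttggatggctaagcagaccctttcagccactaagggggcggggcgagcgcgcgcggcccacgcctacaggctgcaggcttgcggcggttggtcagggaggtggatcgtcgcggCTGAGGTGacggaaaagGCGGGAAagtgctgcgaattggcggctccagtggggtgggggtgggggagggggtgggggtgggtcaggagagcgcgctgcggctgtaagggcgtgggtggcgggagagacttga
Hfm1 (chr5:106925841-106926140, minus strand): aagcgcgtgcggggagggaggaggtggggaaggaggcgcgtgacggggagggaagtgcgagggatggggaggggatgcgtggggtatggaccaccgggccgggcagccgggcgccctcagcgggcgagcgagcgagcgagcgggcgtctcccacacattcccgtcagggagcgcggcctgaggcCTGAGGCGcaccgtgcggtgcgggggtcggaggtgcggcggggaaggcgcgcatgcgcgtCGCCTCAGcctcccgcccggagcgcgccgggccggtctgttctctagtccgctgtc

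In both strands of these windows 4 motifs were searched: CAGTTG for MYB factors (in 13.7% of all 32851 start regions), TTCCCGC for E2F factors (in 1511 of them), CNCCTCAG for the meiotic entry factors STRA8 and MEIOSIN (7.94%) and the E-box CACGTG (7.15%). The Hfm1 window held 2 matches to the STRA8 and MEIOSIN letters, beginning 66 and 6 bases before the start. In Msh5, 1 match to the same letters began 82 bases before the start and 1 E2F match began 65 bases before it, without overlap. The Msh4 window held none of the 4. The windows of Msh4, Hfm1 and Ccnb1ip1 lie wholly inside the genes as GENCODE gives them, and which start is used in testis was not checked. Of the windows not shown, that of Pms2 held 1 STRA8 and MEIOSIN match and that of Msh6 held 1 E2F match, and those of Mlh3 and Ccnb1ip1 held none. CpG dinucleotides numbered 6 in the Msh4 window, 27 in that of Msh5 and 41 in that of Hfm1, against a median of 7 over all start regions. These matches describe letters in a window and were not related to any measured binding or methylation.

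At 20 dpp, 5 of the 8 members were lower in the mutants, 2 were higher and 1 did not pass the test, on the authors' scale. Mlh3 fell most, followed by Hfm1, Ccnb1ip1, Msh4 and, by a small margin that depended on scaling, Msh6. Tex11 and Pms2 rose, and Msh5 did not pass. The meiosis-specific members thus did not move as a group (3 lower, 1 higher, 1 not passing), and neither did Msh6 and Pms2 (1 lower, 1 higher). A gene passed at a Benjamini-Hochberg adjusted p under 0.05 over all genes in limma, and by that rule 33.1% of all genes were lower and 26.4% higher (59.5% in either direction), so the members' counts lie against a background in which most genes changed. The median log2 change was -0.73 over the 8 members and 0.049 over all genes.

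The level in each library is given first as RPKM, which divides reads by exon length and by the gene reads of the library, so that genes and ages can be set side by side although the authors scaled each age separately. Reads are summed over all annotated exons, so an unannotated or shorter testis transcript would bias a gene's level, and its ratio too if the genotypes differ in transcript mix, which was not tested.

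**Figure D1:**
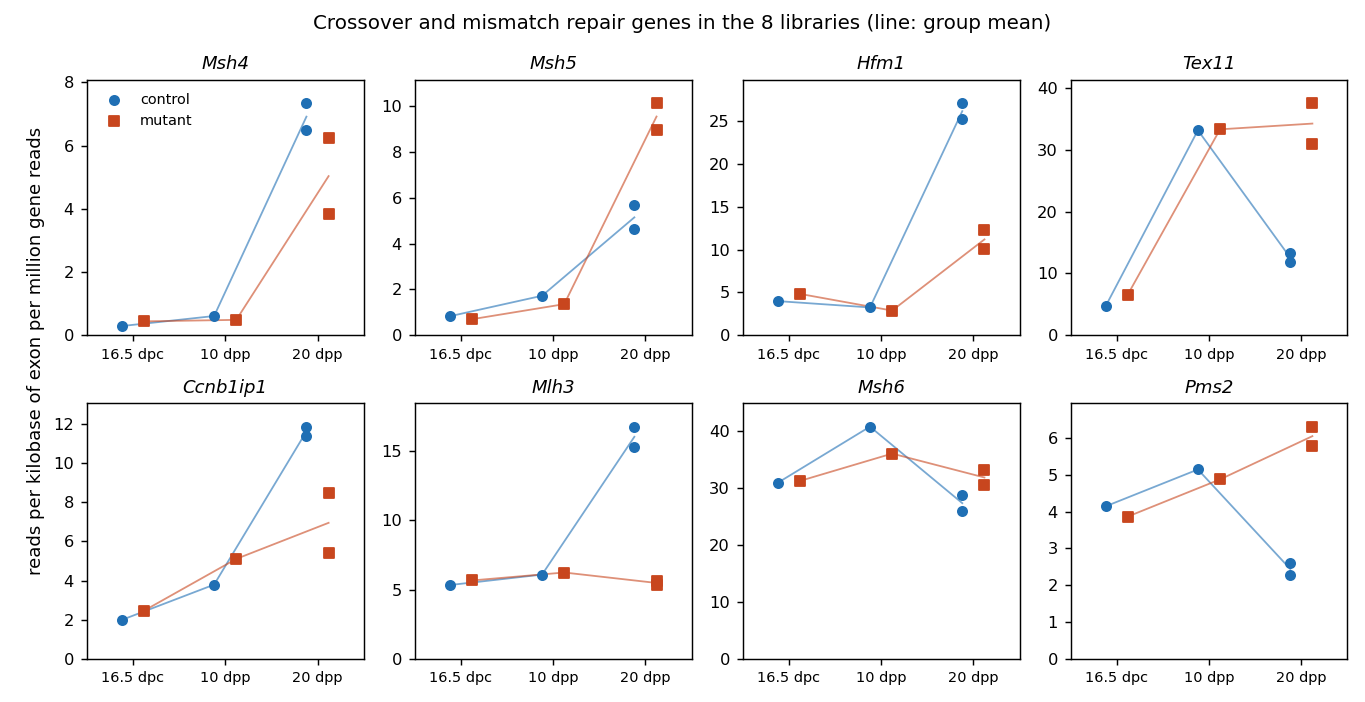
Level of each member in the 8 libraries, in RPKM (each panel has its own axis from 0; circles are control and squares mutant libraries, lines join group means). At 20 dpp Mlh3, Hfm1, Ccnb1ip1 and Msh4 are lower in both mutant libraries than in both controls. Tex11, Msh5, Pms2 and Msh6 are higher in both on this scale, whereas Msh6 is lower on the deposited scale.

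MSH4 and MSH5 act first, as the clamp on recombination intermediates. Msh4 stood at 6.48 and 7.35 RPKM in the 20 dpp controls and at 6.23 and 3.84 in the mutants. Between its mutant libraries the fold was 1.57, against 1.06 between the controls. On the deposited scale its normalised reads went from 6428.8 and 6840.2 in the controls to 3892.7 and 2481.6 in the mutants, with no overlap of the groups. Msh4 fell 2.13-fold (log2 change -1.09 ± 0.22 SE, limma adjusted p = 0.0041). With total gene reads as the scale the change was -0.50 and did not pass (adjusted p = 0.0882).

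Msh5 encodes the partner of MSH4 and was the 1 member that did not pass. It stood at 3672.7 and 4228.4 normalised reads in the controls and 5083.0 and 4638.1 in the mutants, again without overlap. The log2 change was 0.30 ± 0.15 (95% interval -0.049 to 0.65, adjusted p = 0.118), and the interval holds no fall of the size seen for Msh4. With total gene reads it was 0.90 (adjusted p = 0.0021) and with the upper quartile of gene reads 0.76 (adjusted p = 0.0042), both past the threshold.

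Hfm1, the helicase, was the most abundant meiosis-specific member in the 20 dpp controls. It stood at 27.2 and 25.2 RPKM there and at 10.1 and 12.3 in the mutants. Normalised reads were 26130.5 and 22789.8 in the controls and 6122.2 and 7710.7 in the mutants, well apart. Hfm1 fell 3.55-fold (log2 change -1.83 ± 0.15, adjusted p = 5.2e-05).

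Tex11, the X-linked scaffold, went the other way. Its controls held 6175.0 and 6478.7 normalised reads and its mutants 10156.6 and 12766.5, so both mutant libraries lay above both controls. Tex11 rose 1.80-fold (log2 change 0.85 ± 0.15, adjusted p = 0.0022). In RPKM it stood at 11.8 and 13.2 in the controls and at 30.9 and 37.6 in the mutants, the highest mean level of any member there, though overlapping that of Msh6.

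Ccnb1ip1, the ligase that selects crossover sites, held 3082.6 and 3016.6 normalised reads in the controls and 1446.7 and 958.5 in the mutants. The fold between the mutant libraries was 1.51, and both lay below both controls. Ccnb1ip1 fell 2.59-fold (log2 change -1.37 ± 0.23, adjusted p = 0.0019). The overlapping Rpph1 had 43 and 75 mutant reads and 34 and 295 control reads, beside 2031, 973, 1907 and 3480 on Ccnb1ip1. Whether any of these were counted for both genes was not tested.

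Mlh3, the MutL subunit that serves crossover resolution and mismatch repair, had the largest log2 change of the 8 members. Normalised reads were 16609.4 and 17081.7 in the controls and 3846.4 and 3775.1 in the mutants, and the replicates differed by 1.03-fold and 1.02-fold. Mlh3 fell 4.42-fold (log2 change -2.14 ± 0.12, 95% interval -2.43 to -1.86, adjusted p = 8.0e-06).

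The members used in all cells moved apart. Msh6, which recognises mismatches, held 16198.8 and 16902.3 normalised reads in the controls and 12057.8 and 13505.3 in the mutants. It fell 1.30-fold (log2 change -0.37 ± 0.12, adjusted p = 0.0315). This direction reversed with total gene reads (0.22) and with the upper quartile (0.079), where it did not pass, and the call was also lost without a trend (adjusted p = 0.104), without mutant replicate 1 (0.0949), without control replicate 1 (0.111) and without control replicate 2 (0.154). Pms2, the nuclease subunit of MutLα, held 2651.0 and 2867.5 normalised reads in the controls and 4647.7 and 4410.5 in the mutants. Pms2 rose 1.64-fold (log2 change 0.72 ± 0.15, adjusted p = 0.0046).

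**Figure D2:**
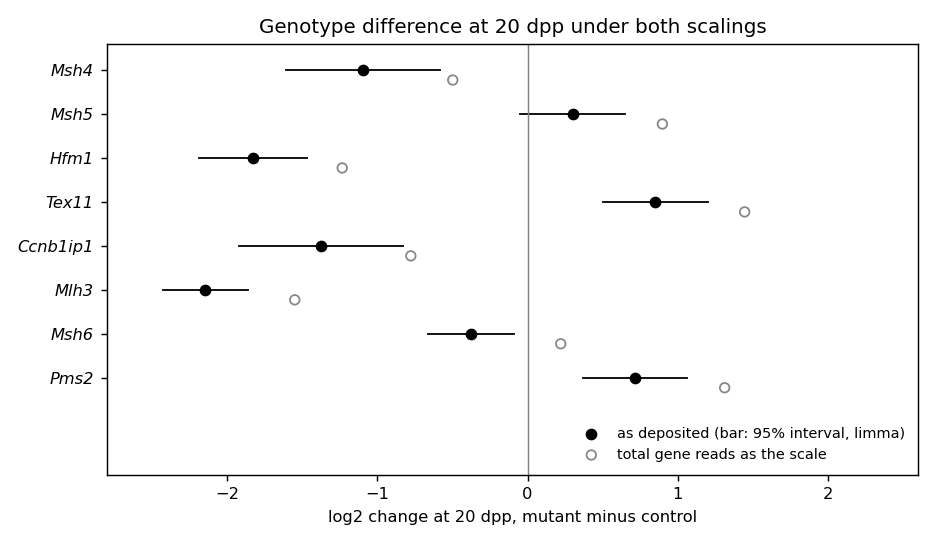
Log2 change of each member at 20 dpp, mutant minus control, 2 libraries each. Filled points and 95% intervals use the deposited scale and open points use total gene reads, which moves every gene up by about 0.60: Mlh3, Hfm1, Ccnb1ip1 and Msh4 stay below 0, Tex11, Pms2 and Msh5 stay above it, and Msh6 crosses it.

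The choice of scale moved all genes by 0.60 (total gene reads) or 0.45 (upper quartile) on the log2 scale. With total gene reads 3 members passed higher and 3 lower (8427 of all genes higher and 3795 lower), and with the upper quartile 3 higher and 4 lower (7538 and 4200). Ratios between genes of 1 library do not depend on the scale. Relative to Msh6, Mlh3 stood at log2 ratios of 0.036 and 0.015 in the controls, near equal reads, and at -1.65 and -1.84 in the mutants, a difference of -1.77. The corresponding differences were -1.45 for Hfm1, -0.998 for Ccnb1ip1, -0.72 for Msh4, 0.68 for Msh5, 1.09 for Pms2 and 1.22 for Tex11. In each of these 7 ratios the mutant and control libraries did not overlap. The 7 ratios share the reads of Msh6, and the share of all genes without overlap was not counted. With 2 against 2 libraries the smallest p an exact test can give is 0.333, so a lack of overlap alone shows little. No test was run on these ratios.

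**Figure D3:**
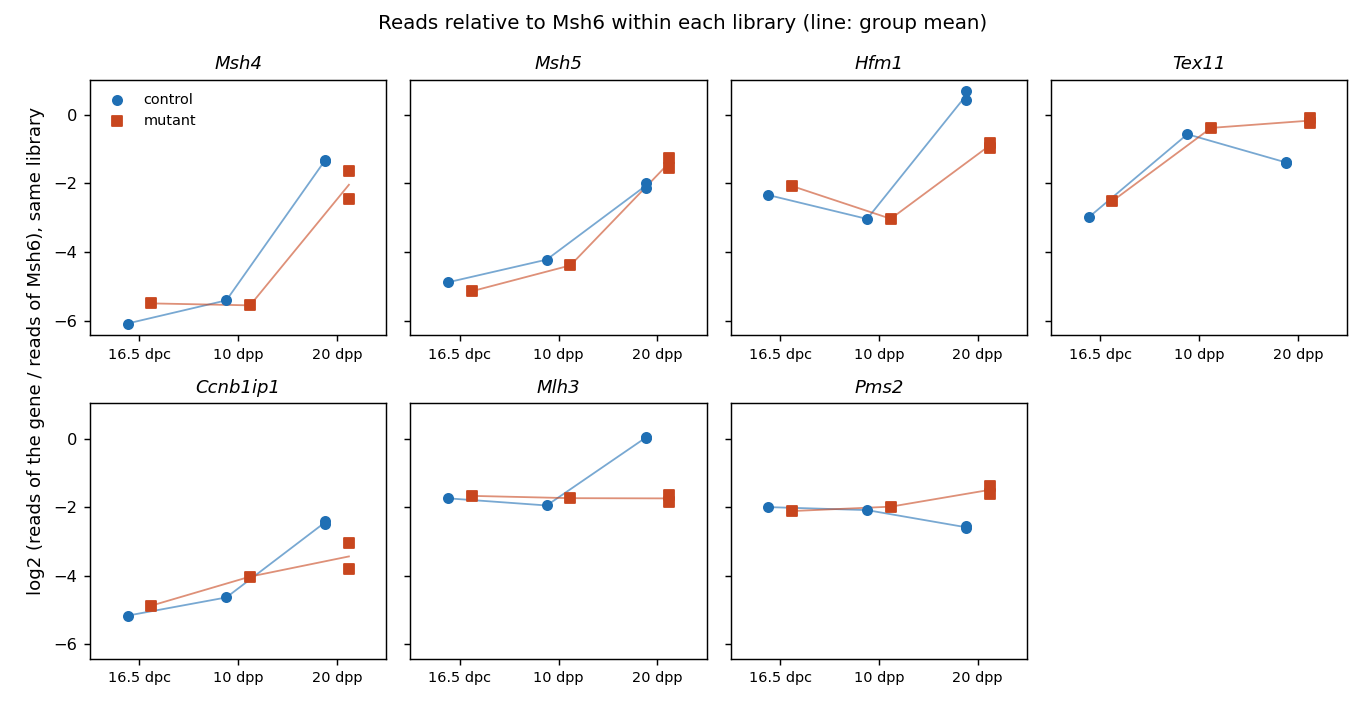
Log2 of the reads of each member over the reads of Msh6 in the same library, by age and genotype (circles control, squares mutant, lines join group means, 1 shared axis). In the 20 dpp mutants Mlh3 lies near its ratio of 10 dpp, while Msh5 and Tex11 stand above their 20 dpp controls.

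By mean RPKM the order in the 20 dpp controls was Msh6 (27.4 ± 2.05, SD, n = 2), Hfm1 (26.2 ± 1.36), Mlh3 (16.02 ± 1.04), Tex11 (12.5 ± 0.989), Ccnb1ip1 (11.6 ± 0.344), Msh4 (6.91 ± 0.613), Msh5 (5.14 ± 0.741) and Pms2 (2.44 ± 0.245). The libraries of Msh6 and Hfm1 overlapped, as did those of Tex11 and Ccnb1ip1. In the mutants the order was Tex11 (34.2 ± 4.72), Msh6 (31.9 ± 1.81), Hfm1 (11.2 ± 1.56), Msh5 (9.55 ± 0.840), Ccnb1ip1 (6.95 ± 2.15), Pms2 (6.05 ± 0.366), Mlh3 (5.47 ± 0.200) and Msh4 (5.03 ± 1.69). There Tex11 and Msh6 overlapped, Hfm1 and Msh5 overlapped, and Ccnb1ip1, Pms2, Mlh3 and Msh4 all overlapped one another except Pms2 and Mlh3. Mlh3 thus went from the third to the seventh place and Pms2 from the last to the sixth.

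The age courses set these differences in context. They compare libraries of separate ages with no replicate before 20 dpp, so the folds below are descriptions with no test. In the controls, Msh4 was 2.11-fold higher in CPM, the reads scaled to the gene reads of the library, at 10 dpp than at 16.5 dpc, and 11.4-fold higher again at 20 dpp than at 10 dpp. The control fold from 10 to 20 dpp was 8.10 for Hfm1, 3.07 for Ccnb1ip1, 2.99 for Msh5 and 2.64 for Mlh3. Tex11 had another course: it was 7.11-fold higher at 10 dpp than at 16.5 dpc and then stood at 0.378 of its 10 dpp level at 20 dpp. Msh6 and Pms2 stood at 0.670 and 0.475 of their 10 dpp level.

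The mutant courses differed from these by gene. CPM places the 20 dpp mutants about 0.60 (log2) higher against their controls than the deposited scale does. From 10 to 20 dpp the mutant fold in CPM was 10.4 for Msh4 and 7.06 for Msh5, but 3.90 for Hfm1, 1.36 for Ccnb1ip1, 1.03 for Tex11 and 0.879 for Mlh3. Set against the 10 dpp control, the 20 dpp mutants held 8.33 times its Msh4, 5.55 times its Msh5, 3.46 times its Hfm1 and 1.83 times its Ccnb1ip1. For Mlh3, Tex11 and Pms2 the value was 0.901, 1.03 and 1.18, close to the level of the younger control, and for Msh6 it was 0.781. The levels of Msh4 and Msh5 were thus far above their 10 dpp level in the same mutant libraries in which Mlh3 was not.

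At 10 dpp no member met the rule for single libraries, which asks for a ratio of at least 2-fold, a 95% interval (exact conditional binomial, counting error only) that excludes 1, and a sum of 50 reads or more over the pair. By that rule 0.886% of all genes were listed. Msh4 had 216 reads in the mutant and 279 in the control, a ratio of 0.805 (0.671 to 0.965). Msh5 had 485 and 636 reads (0.793, 0.703 to 0.894) and Ccnb1ip1 had 624 and 478 (1.36, with an interval of 1.203 to 1.53). These are the 3 members with the fewest reads at that age. Hfm1 (0.894) and Msh6 (0.891) were lower with intervals that exclude 1, which makes 5 of 8 members against 38.3% of all genes, and Tex11 (1.01), Pms2 (0.955) and Mlh3 (1.03) had intervals that include 1. For scale, 2 libraries of the same genotype at 20 dpp differed by up to 1.57-fold (mutant) and 1.151-fold (control) in these genes, and with 1 library per genotype these ratios compare libraries, not genotypes.

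At 16.5 dpc no member was listed either, against 0.734% of all genes. The largest ratio was that of Msh4, with 223 reads in the mutant and 113 in the control (1.52, 1.21 to 1.92). Tex11 followed with 1764 and 966 reads (1.41, 1.30 to 1.52), Ccnb1ip1 with 344 and 214 (1.24, 1.04 to 1.48) and Hfm1 with 2398 and 1521 (1.21, 1.14 to 1.30). These 4 meiosis-specific members were higher in the mutant library with intervals that exclude 1, and Msh5 was not (0.844, 0.711 to 1.00). Pms2 (0.934, 0.879 to 0.993) and Mlh3 (1.06, 1.01 to 1.12) differed slightly, with intervals that also exclude 1, and Msh6 did not (1.01). The intervals of 6 of 8 members thus exclude 1, against 41.9% of all genes, for which the 90th percentile of the absolute log2 ratio was 0.48 (0.60 for Msh4 and 0.49 for Tex11). Rpph1, which overlaps Ccnb1ip1, had 328 mutant and 17 control reads at this age. The summed level of 12 spermatogonial genes was 321.1 CPM in this mutant library and 269.2 in the control, and its part in the ratios was not tested.

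**Figure D4:**
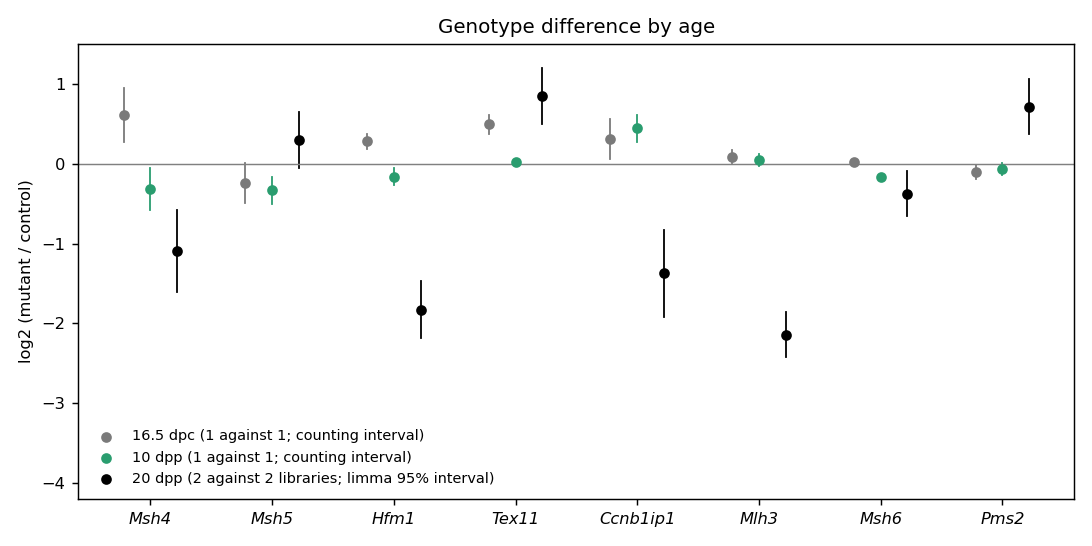
Log2 ratio of mutant to control for each member at 3 ages. At 16.5 dpc and 10 dpp there is 1 library per genotype and the bars are counting intervals, and at 20 dpp there are 2 per genotype and the bars are limma 95% intervals, so the bars are not comparable between ages; Mlh3 lies near 0 at both younger ages and at -2.14 at 20 dpp.

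Whether the genotype difference itself changed between 10 and 20 dpp was tested with an interaction term in limma over the 6 libraries of these ages. The spread came from the 20 dpp libraries and was assumed for the single 10 dpp libraries. For 5 of the 8 members the term passed, against 32.0% of 16578 genes. Mlh3 had a term of -2.19 ± 0.22 (log2 change at 20 dpp minus that at 10 dpp, adjusted p = 2.5e-04) and Ccnb1ip1 -1.81 ± 0.42 (adjusted p = 0.0137). Hfm1 had -1.67 ± 0.27 (adjusted p = 0.0027), Tex11 0.83 ± 0.25 (0.0384) and Pms2 0.78 ± 0.25 (0.0470). Msh4 (-0.78, adjusted p = 0.179), Msh5 (0.63, 0.133) and Msh6 (-0.21, 0.473) did not pass. Only the terms of Mlh3 and Hfm1 also passed without a trend, and 3 members passed without control replicate 1 or without control replicate 2, where Tex11 (adjusted p = 0.102 and 0.0656) and Pms2 (0.129 and 0.0713) lost their calls. Pms2 lost its call without mutant replicate 1 as well (0.0537), where Msh4 passed (-1.11, 0.0305). Scaled to total gene reads, 5 members passed as well, but Ccnb1ip1 lost its call (-1.21, adjusted p = 0.0531) and Msh5 gained one (1.24, 0.0160).

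Other genes of the same pathways were taken from lists of known pathway genes. Their counts at 20 dpp stand beside 33.1% of all genes lower and 26.4% higher on the deposited scale. With total gene reads they stand beside 3795 lower and 8427 higher of 17194 genes. Of 12 other crossover factors 8 were measured, and 6 fell, 0 rose and 2 did not pass (median log2 change -0.82, and -0.23 with total gene reads, where 4 fell and 2 rose). Slx4, a scaffold of structure-specific nucleases, fell 6.85-fold (log2 change -2.78 ± 0.14, adjusted p = 5.3e-06) and Prr19, a crossover factor, fell 5.93-fold (-2.57 ± 0.17, 1.8e-05). Exo1, an exonuclease of mismatch repair that also acts in crossover formation, did not pass, with a log2 change of 0.21 (adjusted p = 0.216).

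The 17 measured genes of break formation and strand exchange comprised 6 that fell, 5 that rose and 6 that missed the threshold (median 0.15, and 9 rose and 3 fell with total gene reads). Psmc3ip (HOP2), a cofactor of strand exchange, and Spo11, the enzyme that makes the breaks, fell 8.51-fold and 6.91-fold (adjusted p = 8.0e-06 and 1.1e-05). Of 12 genes of the synaptonemal complex and meiotic cohesin, 9 fell, 2 rose and 1 did not pass (median -0.76, and 4 fell and 3 rose with total gene reads). Syce1, of the central element, and Stag3, a meiotic cohesin subunit, fell 7.13-fold and 3.30-fold (adjusted p = 3.1e-06 and 3.9e-05).

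Of 15 other mismatch repair and replication factors 8 fell, 3 rose and 4 did not pass (median -0.68, and 4 fell and 6 rose with total gene reads). Rpa1 and Rfc2, of single-strand binding and of the clamp loader, fell 4.84-fold and 3.92-fold (adjusted p = 6.5e-06 and 3.3e-05). Msh3, the alternative partner of mismatch recognition, had a log2 change of -0.68 ± 0.14 (adjusted p = 0.0050), and Pms1 one of 0.67 ± 0.22 (adjusted p = 0.0306).

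**Figure D5:**
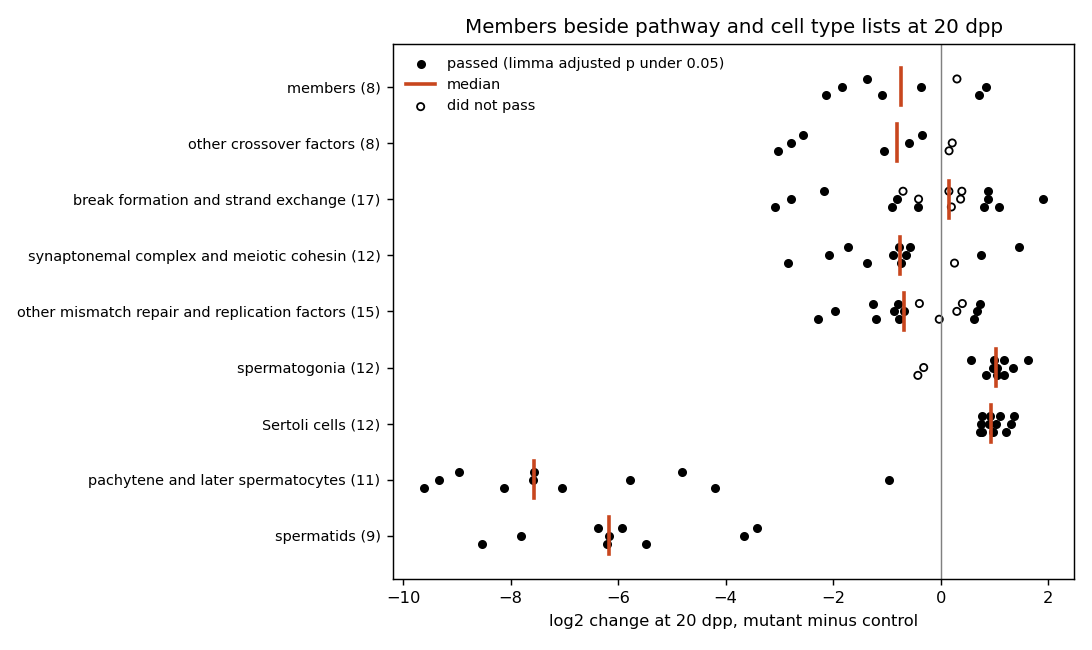
Log2 change at 20 dpp of each measured gene in the members and in 8 lists (number of genes in brackets; filled points passed, open points did not, bars are medians, vertical offsets only separate points). The members spread from -2.14 to 0.85, beside medians of -7.57 for pachytene and later spermatocyte genes and of 1.02 for spermatogonial genes.

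Cell type markers moved in the same 20 dpp libraries, and in whole-testis RNA fewer cells of a type and less RNA per cell cannot be told apart. The 11 pachytene and later spermatocyte genes with values summed to 11191 and 10391 CPM in the controls and 545.6 and 395.4 in the mutants, and all 11 fell (10 with total gene reads). All 9 measured spermatid genes fell, with sums of 487.2 and 313.9 against 33.8 and 26.1 CPM. The 12 spermatogonial genes summed to 294.9 and 334.4 CPM in the controls and 892.3 and 926.8 in the mutants (10 rose, 2 did not pass), and all 12 Sertoli cell genes rose, with sums of 2082.5 and 2355.0 against 6096.8 and 6645.2. These sums are in CPM, whereas the counts of genes use the deposited scale unless stated. On the deposited scale the median log2 change was 1.02 for spermatogonial and 0.94 for Sertoli cell genes. With total gene reads it was 1.62 and 1.54. Of 8 Leydig cell genes 2 rose, of 6 peritubular myoid genes 3 rose, and of 10 endothelial and leukocyte genes 3 rose and 1 fell. On the scale of total gene reads, 3 of the Leydig, all 6 of the myoid and 7 of the endothelial and leukocyte genes passed higher, and 1 of the last passed lower. Of all 17194 genes, 8427 passed higher and 3795 lower on that scale. Every gene listed at 20 dpp had at least 5 reads, so these values cannot show a marker at 0. Pgk2 of the spermatocyte list and Prm2 of the spermatid list had no values, and whether their transcripts were absent was not tested. The part of the marker shifts in the members' changes was not tested. Among all genes, the members' log2 changes, from -2.14 to 0.85, lay between percentile 12.5 (Mlh3) and percentile 80.0 (Tex11).

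Across the 8 libraries the pattern of log2(CPM + 1) was compared between genes by Pearson's r, as a description over libraries that share their ages and scaling. Among 14010 named genes with a mean of at least 1 CPM, those most like Msh4 were Tex264 (r = 0.998), Ccdc73 (0.997), Hormad1 (0.997) and Yipf2 (0.995). Those most like Msh6 were Lancl3 (0.967), Mansc1 (0.964), Bves (0.962) and Dnmt1 (0.960). Among the members themselves r ran from -0.88 (Pms2 with Mlh3) to 0.93 (Msh4 with Msh5). Msh4 and Msh5 were thus alike over the ages, although at 20 dpp Msh4 fell and Msh5 did not pass, with log2 changes of -1.09 and 0.30. This likeness was not particular to the pair, since Msh4 had r = 0.92 with Hfm1 and 0.91 with Ccnb1ip1.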

How the data were processed

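Whole-testis RNA was sequenced in 8 libraries. The deposited values are log2 values without header lines. The submitters' processing notes name mm10, Bowtie 1.0.0, HTSeq 0.6.1 and TopHat2 2.0.6 without saying what each did. Annotation and strand setting: not given in the sources used here. Each value equalled log2 of (a whole count over a library factor, plus 1), within 0.01 reads for 100% of values. The factors equalled median-of-ratios factors within an age, so normalised reads are comparable within an age only. The lowest count was 5 or 6.

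Since the deposited unit is log2 and not counts, the model was limma 3.58.1 (R 4.3.3) on those values, genes and repeat families together, with a mean-variance trend, and p-values were adjusted over genes by Benjamini-Hochberg (2 residual and 5.21 prior degrees of freedom). Fold changes refer to log2(value + 1), which understates those of low genes. Recovered reads gave CPM, RPKM with exon lengths from GENCODE M21, and single-library ratios (Python 3.11.15, SciPy 1.17.1). The members, lists and rules were chosen with earlier results of these data known. Named genes were all members, the 2 of lowest p in each pathway list with Exo1, Msh3, Pms1 and Rpph1 added after their values were seen, and the 4 most like Msh4 and Msh6. Of the list genes 4 were matched by an older symbol and 7 were not analysed here.

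The fits were checked on simulated data with known answers. The 20 dpp fit recovered 98% of planted 2-fold changes, with 9 false calls among 16994 unchanged genes. The interaction fit recovered 70.8% of 96 planted 2-fold changes, with 55 false calls among 16384 unchanged genes. It can thus miss changes of that size, and false calls made up more of its calls than the threshold of 0.05 allows. Interaction calls near the threshold, such as those of Tex11 and Pms2, should be read with care. The simulations used a dispersion of 0.00819 and left most genes unchanged, whereas 59.5% of all genes passed at 20 dpp in the data. Alternatives covered scaling, pseudocount, filter, trend, voom, genes alone, libraries left out and the replicate number as a block.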

Additional observations from a re-analysis of the deposited data

Results flagged for a closer look

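The genotype difference of 5 members passed as differing between 10 and 20 dpp by the interaction test in limma, which uses 1 library per genotype at 10 dpp. On simulated data the interaction test made more false calls than its threshold allows. The difference between ages (log2 change at 20 dpp minus that at 10 dpp) was -1.67 for Hfm1, 0.83 for Tex11, -1.81 for Ccnb1ip1, 0.78 for Pms2 and -2.19 for Mlh3. At 20 dpp the direction was the same in both mutant libraries against both controls for all 5. This is no separate support, because the same libraries entered the test that picked these members. Ccnb1ip1 had opposite signs at the 2 ages (0.44 at 10 dpp and -1.37 at 20 dpp). Its 10 dpp ratio of 1.36 is smaller than the 1.51-fold between its mutant libraries at 20 dpp, so a change of sign is not shown. The interaction call of Ccnb1ip1 was lost without a trend (limma adjusted p = 0.0590) and with total gene reads (0.0531). Without a trend those of Tex11 and Pms2 were lost too. The cause was not tested.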

How the results depend on the processing

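Over 12 alternatives the 8 members gave 96 changes at 20 dpp, of which 87 kept their direction and their side of the threshold, and Hfm1, Tex11, Ccnb1ip1, Pms2 and Mlh3 did so in all 12. With total gene reads Msh4 did not pass (-0.497), Msh5 passed (0.897) and Msh6 reversed (0.221), and with the upper quartile Msh5 passed (0.755) and Msh6 reversed (0.0794); these scalings move every gene up, by construction. Without a trend Msh6 did not pass (-0.375). Leaving out each 20 dpp library in turn gave Msh6 changes from -0.457 (without mutant replicate 2) to -0.293 (without mutant replicate 1). Without a trend the interaction passed for 2 members, and with libraries left out for 3 to 5. With total gene reads the interaction of Msh6 reversed (0.399), that of Ccnb1ip1 no longer passed (-1.21) and that of Msh5 passed (1.24). The 1.5-fold rule listed 1 member at 16.5 dpc, Msh4. The share of all genes was counted neither for that rule nor for the interaction under the alternatives, so these counts have no background. Leaving out a library keeps 1 in its group, which is then assumed to vary like the other group. With the replicate block 7 members and 10059 genes passed, and it changed no call on a member. Deviations of same-numbered libraries correlated at 0.036 across 17194 genes. With 2 libraries per genotype this does not settle whether they were paired, and the labels state no pairing. Genes passing ranged from 7672 (without control replicate 1) to 12222 (total gene reads), against 10228. Depth limits Msh4 at 16.5 dpc most, with 113 reads in the control.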

Other observations

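The summed level of the 8 genes at 20 dpp was 562.7 and 594.1 CPM in the controls and 521.0 and 536.0 in the mutants. On the deposited scale the sums were 80949 and 80205 normalised reads in the controls and 47253 and 50246 in the mutants, so the size of the difference depends on the scale. Per length, Mlh3 took 14.6% and 15.0% of the members' RPKM in the controls and 5.18% and 4.74% in the mutants. Msh6 and Pms2 together took 26.8% and 28.2% in the controls and 34.1% and 34.7% in the mutants. The 5 meiosis-specific members took 58.6% and 56.8% in the controls and 60.8% and 60.6% in the mutants, against 22.5% in the control library at 16.5 dpc and 45.0% in that at 10 dpp. The RPKM shares do not depend on the scale between libraries and were not tested.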
